A study of Mus musculus with 8 samples.

Results

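The m6A peaks described here were called in infarcted mouse left ventricle and compared between hearts labelled aavFto and hearts labelled aavgnp. Every row of the authors' deposited table for this pair was taken, with no filter, which gave 465 of the 581 peaks in the 2 deposited tables. The other 116 belong to the comparison of MI (myocardial infarction) with sham surgery. The 465 peaks came from 4 of the 8 libraries of the series, an input and a MeRIP library for each group. All 4 libraries were made from left ventricle of wild-type C57BL/6 mice after infarction, at 1 week, with 200 µg of RNA per group. The labels expand neither name. The aavFto hearts were taken to have received Fto by viral vector and the aavgnp hearts a comparison vector, so that a vector and an infarct were common to both groups. The labels used here give neither the promoter, dose or timing of the vectors, nor how many animals were pooled, nor their sex. Each group was 1 library of each kind. Replicates were therefore lacking for every difference given below, and the p-values and false discovery rates (FDRs) of the authors compare libraries and not conditions.

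Methylation of adenosine at its N6 position (m6A) is a mark carried inside messenger and noncoding RNA. A writer complex built around METTL3 and METTL14 places it, proteins with a YTH domain read it, and FTO and ALKBH5 remove it. In MeRIP-seq, fragments of RNA that an m6A antibody binds are sequenced, and stretches over-represented against the input are called as peaks. FTO is also known to act on m6Am, a related mark at the first transcribed adenosine beside the cap, which antibodies against m6A bind as well. After an infarct the dead part of the ventricle is replaced by a collagen scar made by fibroblasts, while the surviving cardiomyocytes carry the contraction.

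In the authors' deposited table each peak has a fold enrichment over input, an enrichment p, and a log2 change from one group to the other that has a p and an FDR too. The log2 change was read as aavFto over aavgnp, following the table's name, which puts Fto before null, with null assumed to be the aavgnp group. The headers do not state the sign, and read the other way each direction below is turned. A value is a change of a peak between groups and never an expression level. No per-library value was analysed here, so whether a peak differed through the methylated share of a transcript or through something else cannot be told apart. Fewer cells of a type and less RNA per cell also cannot be told apart in bulk tissue. Depth per library is unknown, and the intervals cover counting error only.

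The peaks lay in 271 named genes, with 449 peaks carrying a gene ID and 16 none. All 449 fell inside the RefSeq span of their gene on GRCm38.p6, the assembly of mm10. Peaks were 57 to 3923 bases long, with a median of 181, and were made of 1 to 45 blocks, the pieces of a peak on the genome. Of the 242 peaks of a single block, 225 (93.0%) had a length within 1 base of a multiple of 30, so lengths came in steps. Fold enrichment ran from 6.97 to 144 with a median of 54.3, and the weakest listed peak had an enrichment FDR of 0.0427. Overlapping peaks on 1 strand merged into 456 loci. All 12 fixed cardiomyocyte markers had a listed peak, among them Myh6, Tnnt2, Actn2 and Ryr2. Of the other marker lists, 7 of 14 fibroblast, 6 of 15 macrophage and 3 of 13 endothelial and 1 of 6 erythroid genes had one. None of 10 smooth muscle and pericyte, 8 neutrophil and lymphocyte and 5 adipocyte markers did. Fto itself had no listed peak and its RNA level was not analysed here, so the vector was not checked.

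Because m6Am sits at transcript starts, the starts covered by peaks are shown first. RefSeq start sites were at hand for 212 of the 271 genes, which hold 346 of the peaks. Only 5 of these peaks reached the first 50 transcribed bases of an annotated start, and 4 covered the first base. Windows of 30 bases are given 5′ to 3′ with the first transcribed base in capitals, in the build GRCm38.p6 from RefSeq.
Nppa, chr4:148000702-148000731, plus strand: agctggggggctataaaaacGggagatgct
A930016O22Rik, chr7:19421408-19421437, minus strand: aggaggcggggcaccagcgcAcactgcagg
Tpm1, chr9:67049204-67049233, minus strand: ggagcagcaggcagctccgcGctcgcactc
Crip2, chr12:113140585-113140614, plus strand: gtcccaagtgtgacaagaccGtatacttcg
Ankrd1, chr19:36119835-36119864, minus strand: cgggctggtgtggaggggctCcacagggcc
One start of the 5, that of the long noncoding A930016O22Rik, was an A, against 34.4% of all start sites in the RefSeq table. In the authors' deposited table these peaks stood at 0.86 for Tpm1, 0.86 for Ankrd1, 0.55 for A930016O22Rik, 0.10 for Crip2 and -0.36 for Nppa, all at an FDR of 0.71. The Nppa peak held 20 of the first 50 bases and not the start itself. The Crip2 peak began at 113140595, upstream of its annotated start. All 180 bases of the A930016O22Rik peak were shared with the Ckm peak on the opposite strand. Neither can therefore be assigned to a cap. Peaks that reached annotated starts were thus few in this table, with changes of both signs and none past the authors' threshold.

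By the authors' FDR, the peaks called higher with aavFto lay in 5 genes of the contractile apparatus and in a ribosomal RNA locus. The genes encode the motor, its regulators and an anchor: alpha myosin heavy chain (Myh6), the ventricular regulatory light chain (Myl2), myosin binding protein C (Mybpc3), troponin T (Tnnt2) and the titin cap (Tcap). With 0.05 as the limit on the differential FDR of the authors' deposited table, calls were made for 8 peaks, all higher, which is 1.72% of the 465. None was called lower (0%), and 2 of the 313 negative peaks had an unadjusted p under 0.05, the smallest being 0.0447. By size alone 55 peaks (11.8%) had a log2 change of 1 or more and 76 (16.3%) one of -1 or less.

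The called peaks were broad and had small enrichment p, but most had a fold enrichment below that of the typical peak. They were 61 to 3564 bases long with a median of 1058, and 7 of the 8 had more than 1 block. Their median fold enrichment was 21.8, and 7 of the 8 lay below the table's median of 54.3, with Mybpc3 at 110 as the exception in the authors' deposited table. All 8 were among the 60 peaks of smallest enrichment p. Their changes ran from 0.70 to 2.07, and 8 uncalled peaks had a larger one. Of the Myh6 peaks in the authors' deposited table, the one of smallest p lay on chromosome 14 from 54948647 to 54956941 in 12 blocks, with an enrichment log10 p of -36.2 and a change of 1.05 (FDR 8.13e-10). The Myl2 peak ran over 7 blocks of chromosome 5 from 122100980 to 122106854 and totalled 633 bases, with a fold enrichment of 19.4 in the authors' deposited table. FDRs for the remaining peaks were nearly uniform, with 443 of the 465 at 0.713, and only 14 distinct values occurred in the column.

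**Figure D1:**
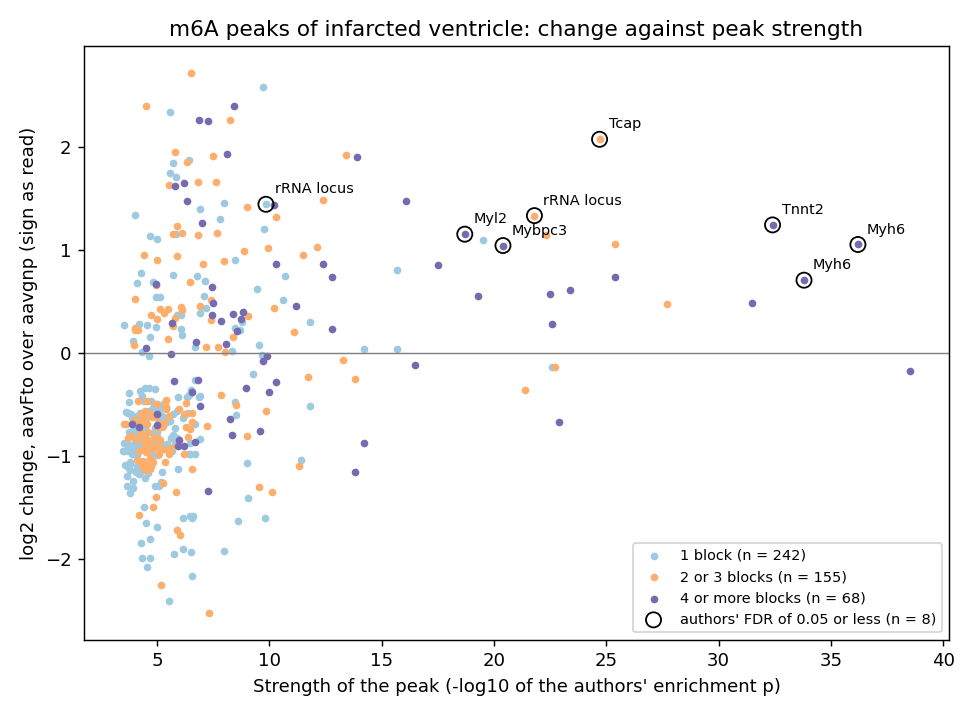
Log2 change of each of the 465 peaks (y axis, aavFto over aavgnp) against the strength of the peak (x axis, -log10 of the authors' enrichment p), coloured by number of blocks, with the 8 peaks at an FDR of 0.05 or less ringed and named. Ringed peaks lie between 0.70 and 2.07, while most weak peaks lie below 0.

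The direction of change followed the extent of a peak. Among peaks of 120 bases or less, 8 of 115 were positive (6.96%, exact 95% interval 3.05 to 13.2), against 39 of 59 (66.1%, 52.6 to 77.9) among peaks over 480 bases. The share over all peaks was 32.7%. By blocks it was 21.5% of 242 peaks with 1 block, 38.1% of 155 with 2 or 3, and 60.3% of 68 with 4 or more. Length, block number and enrichment p move together, so the block classes were also set side by side within 3 classes of equal size by enrichment p. In the strongest class 50.0% of 52 single-block peaks and 66.0% of 53 peaks with 4 or more blocks were positive, with exact 95% intervals of 35.8 to 64.2 and 51.7 to 78.5, which overlap. In the weakest class 8 of 110 single-block peaks were positive (7.27%). Strength and fold enrichment parted in the strongest class: 37 of 45 peaks of low fold enrichment were positive (82.2%, 67.9 to 92.0), against 46 of 93 of high fold enrichment (49.5%). Low and high here mean the lowest and highest of 3 equal classes of the whole table. These intervals treat peaks as independent, which peaks of 1 gene are not. Changes near 0 were scarce among weak peaks, with 11 of the 155 weakest inside ±0.3 on the log2 scale, against 32 of the 155 strongest. Some peaks of different genes had identical values. Acadl, Slc16a1 and Tns1 each had a peak at a fold enrichment of 45.4 and an enrichment log10 p of -3.69. Peaks of Eef1b2, Lamc1 and Rhoc shared a change of -0.694 and the authors' unadjusted p of 0.619. How many reads such peaks rest on was not analysed here, so their single values are to be read with care.

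**Figure D2:**
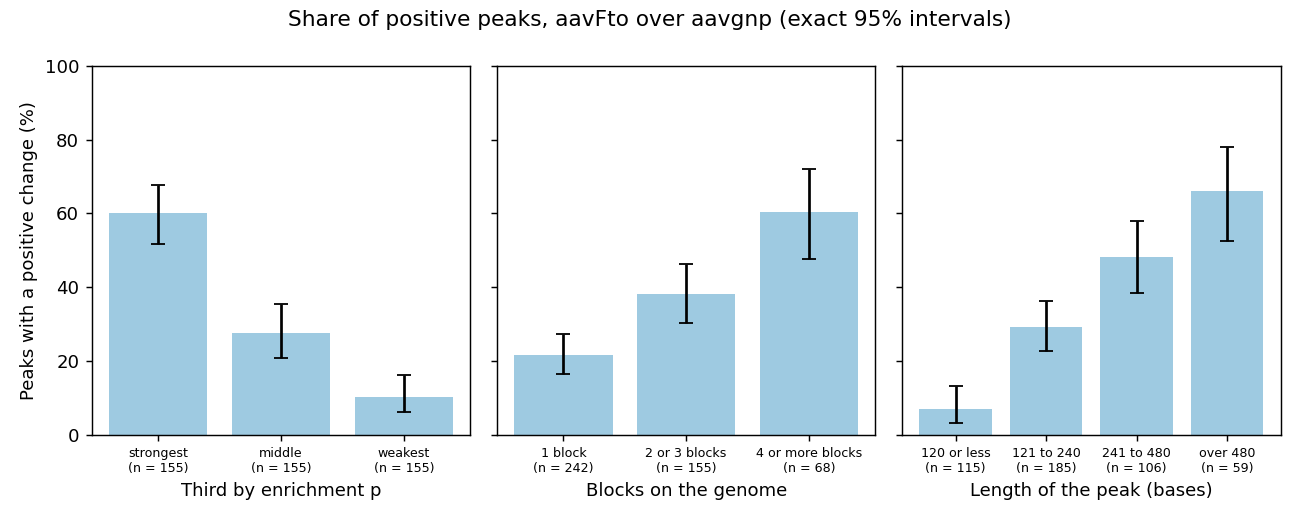
Share of peaks with a positive log2 change (y axis, %) by enrichment p in 3 equal classes, by number of blocks and by length, with exact 95% binomial intervals as error bars and the number of peaks under each bar. The share runs from 6.96% for peaks of 120 bases or less to 66.1% for those over 480.

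Position along the gene was measured from the 5′ to the 3′ end of its span, introns included. The centre of a peak is the midpoint between its outer ends. A peak of many blocks that covers most of its gene is therefore centred near the middle. Examples in the authors' deposited table are Tnnt2 (17 blocks, centre at 50.2%) and Mybpc3 (32 blocks, 47.3%). Of the 449 peaks with a gene ID, 239 had their centre in the 3′-most of 5 equal parts of the gene, where m6A is known to gather around the stop codon and the start of the last exon. Their positive share was 29.7%, and it was 50.7% among the 67 peaks centred in the middle part. Among peaks of a single block these shares were 24.3% of 152 and 23.1% of 13, so the gap was not seen there. Exons were not at hand, so peaks were not placed in coding sequence or untranslated regions.

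To compare genes, each was represented by its peak of smallest enrichment p, a choice that does not use the change. On that basis 94 of the 271 genes were positive (34.7%) and the median was -0.56. A change of 1 or more was found in 31 genes (11.4%) and of -1 or less in 47 (17.3%). At the authors' FDR of 0.05, 5 genes (1.85%) had a called peak, all higher with aavFto. All gene list counts below are to be read against these shares.

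Among the thick filament genes, which form the myosin motor and its scaffold, 7 of 9 were positive, with a median of 0.61 and 3 genes with a called peak. That median was 0.28 with the median over each gene's peaks or with its longest peak, and 1.04 with its largest change. Myl3, the essential light chain, had 1 peak of 808 bases at 0.74 (FDR 0.71) in the authors' deposited table. Myh7, the beta myosin heavy chain that the mouse ventricle uses before birth, stood at 0.61 at its strongest peak of the authors' deposited table. Myom1 and Myom2, which crosslink myosin at the M-band, had values of 0.02 and 0.06 in the authors' deposited table. Titin (Ttn), the spring along the filament, had 5 peaks in the authors' deposited table, all negative from -1.99 to -0.26, all of 1 block and centred between 97.9 and 99.6% of the gene.

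Thin filament genes were positive in 7 of 8 cases, with a median of 0.47. Beside Tnnt2, the authors' deposited table placed cardiac actin Actc1 at 0.57, skeletal actin Acta1 at 0.46, troponin C (Tnnc1) at 0.86 and troponin I (Tnni3) at 0.23, each with 1 peak of 5 to 8 blocks and an FDR of 0.71. Tropomyosin (Tpm1), which covers the myosin sites on actin, had 3 peaks, at 0.86, 0.49 and 1.32 from 5′ to 3′ by the authors' deposited table. Lmod2, which sets the length of the filament, was the negative member at -0.47 in the authors' deposited table. Reads of Actc1 and Acta1, near-identical in coding sequence, and of Myh6 and Myh7 could have been shared, so the split within these pairs is uncertain.

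The Z-disc list was even, with 7 of 14 genes positive and a median of -0.24, which was -0.87 with the largest change and -0.45 with the median over peaks. Its 6 members with the strongest peaks in the authors' deposited table were positive: Tcap (2.07), the stretch-responsive Ankrd1 (1.09), alpha-actinin Actn2 (0.74), desmin Des (0.55), the actin-binding Xirp2 (0.51) and muscle LIM protein Csrp3 (0.31). Myoz2, with the weakest peak, stood at 0.08. Negative members in the authors' deposited table had weaker peaks, led by filamin C (Flnc) at -2.16 and Xirp1 at -1.0, then Ankrd23 at -0.94, Nexn at -0.90, Ldb3 at -0.72, Synpo2l at -0.65 and the co-chaperone Bag3 at -0.55.

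When the lists were restricted to genes whose strongest peak had an enrichment log10 p of -10 or less, a limit chosen after the values were seen, 44 genes remained, 29 positive and 15 negative. All 16 genes of the 3 sarcomere lists were then positive, from 0.23 to 2.07 with a median of 0.74. All 6 genes of the 3 matrix lists were negative, from -1.10 to -0.18 with a median of -0.59. The other 22 genes divided into 13 positive and 9 negative. At -8 in place of -10, 17 of 18 sarcomere genes and 2 of 13 matrix genes were positive. Over all peaks of the sarcomere genes, 30 of 36 peaks of several blocks were positive but 6 of 27 peaks of a single block. For the matrix genes these counts were 10 of 49 and 4 of 27.

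**Figure D3:**
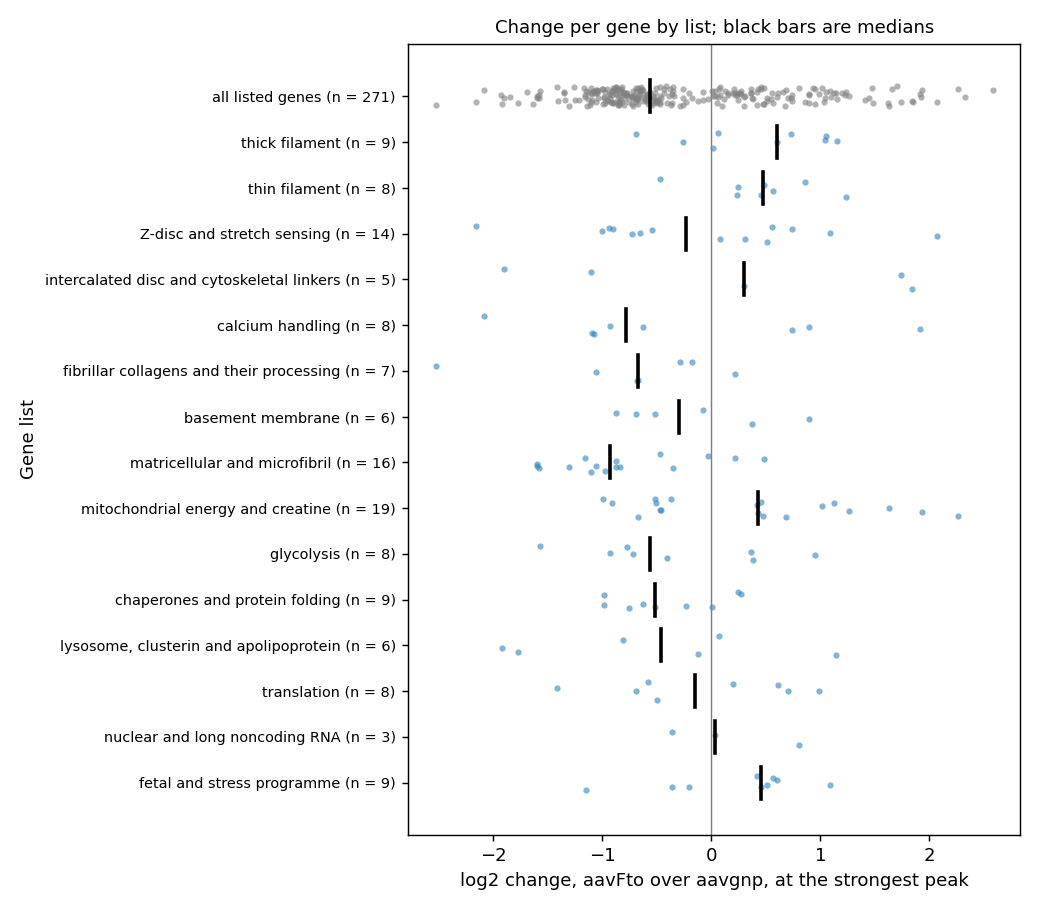
Log2 change of each gene at its peak of smallest enrichment p (x axis, aavFto over aavgnp), by gene list, for pathway lists with 3 or more listed genes (marker lists are not drawn), with the median of each list as a black bar and all 271 genes in the top row. Medians run from -0.93 for the matricellular list to 0.61 for the thick filament list, against -0.56 over all genes.

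Of the 29 listed matrix genes 24 were negative, against 177 of all 271 genes. None had a called peak, where 5 of all 271 genes (1.85%) had one. Of the fibrillar collagens and the enzymes and chaperones that process them, 6 of 7 were negative with a median of -0.67. Col1a1 had the smallest enrichment p of the authors' deposited table (log10 p of -38.5) over 45 blocks and 3923 bases, at a change of -0.18. Its 2 other peaks had changes of 1.65 and 0.17 in that table of the authors. Col3a1, over 43 blocks, stood at -0.67 with an unadjusted p of 0.0447 in the authors' deposited table. Serpinh1, the collagen-specific chaperone, had the lowest change of all peaks, -2.52 over 686 bases in the authors' deposited table. The lysyl oxidase-like crosslinker Loxl1 was at -1.06 and the prolyl hydroxylase subunit P4hb at -0.68, while Col5a1 stood at 0.22 in the authors' deposited table.

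In the basement membrane list 4 of 6 genes were negative, a share near that of all genes, with a median of -0.30 that became 0.15 when the longest peak stood for each gene. Sparc, a collagen-binding glycoprotein, was at -0.87 in the authors' deposited table, with all 3 of its peaks negative. Perlecan (Hspg2) stood at -0.52, Col4a1 at -0.07 and Lamc1 at -0.69, against 0.38 for the laminin Lamb2 and 0.89 for Col4a2, in the authors' deposited table. The neighbouring genes Col4a1 and Col4a2, which encode chains of type IV collagen, had 7 and 10 peaks, of which 1 and 4 were positive.

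In the matricellular and microfibril list 14 of 16 genes were negative, 7 of them at -1 or less, and a median of -0.93. The proteoglycan Bgn and Aebp1 were both at -1.60, Fstl1 at -1.58, the Wnt modulator Sfrp2 at -1.30, Col8a1 at -1.16 and elastin (Eln) at -1.10, none past the threshold of the authors' deposited table. Fibronectin (Fn1) had 5 peaks, each negative, from -2.41 to -0.35 in the authors' deposited table. Periostin (Postn), a marker of activated fibroblasts, was near 0 at its strongest peak, with -0.03 in the authors' deposited table. Positive members were Col6a2 at 0.48 and Igfbp7 at 0.22 in the authors' deposited table. Fibroblast markers were negative in 6 of 7 genes, Gsn being the exception at 0.95, but their median of -0.26 was less negative than the -0.56 over all genes. Of the 7, 4 (Col1a1, Col1a2, Postn and Fstl1) are also in the matrix lists. Cardiomyocyte markers were positive in 8 of 12 genes, with a median of 0.74 and 5 genes with a called peak, and 9 of the 12 are also in the sarcomere lists. The markers outside those lists, Ryr2, Pln and Nppa, were all negative, as was Ttn within them, so every positive marker was a sarcomere gene already counted. Whether the numbers of fibroblasts or cardiomyocytes differed between the hearts was not tested.

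Calcium handling genes had changes of both signs, with a positive share of 37.5%, near the 34.7% of all genes. The list had 3 positive and 5 negative genes, a median of -0.78 and no called peak. Atp2a2, the pump that refills the sarcoplasmic reticulum, had 5 peaks, 4 of them positive between 1.14 and 2.39 in the authors' deposited table. The exception there was a peak of 61 bases at -1.16. Hrc, a calcium-binding protein inside the store, stood at 0.74 and 0.44, and Jph2, which holds the store near the T-tubule, at 0.90 at its strongest peak and at -1.60 and -0.81 at the others, by the authors' deposited table. The store protein Casq2 was at -1.07, its anchor triadin (Trdn) at -2.08, phospholamban (Pln), the inhibitor of the pump, at -1.09 and the release channel Ryr2 at -0.93, in the authors' deposited table. The Trdn and Pln peaks were 60 and 61 bases long, in the length class with the fewest positive peaks.

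Genes of the intercalated disc and the membrane skeleton numbered 5 in the table. Gja1, the gap junction protein connexin 43, stood at 1.74, Ahnak at 1.84 and desmoplakin (Dsp) at 0.30, while plectin (Plec) was at -1.90 and talin (Tln1) at -1.10, in the authors' deposited table. The other Ahnak peak stood at -0.68, and 3 of the 5 Dsp peaks were negative. The list's median of 0.30 turned to -0.86 with the largest change, -0.68 with the longest peak and -0.64 with the median over peaks, so no direction is given for it. Plec had 10 peaks, each of 1 block and centred between 83.4 and 99.5% of the gene, and 9 were negative.

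Genes of mitochondrial energy supply were positive in 11 of 19 cases with a median of 0.43, which was -0.04 with the median over each gene's peaks. No member passed the FDR, and 6 stood at 1 or more, against 31 of 271 over all genes. Among them were muscle creatine kinase (Ckm) at 1.93, the cytochrome oxidase subunit Cox7a1 at 1.63, the ATP synthase subunits Atp5a1 at 1.26 and Atp5b at 1.02, and malate dehydrogenase Mdh2 at 1.13, in the authors' deposited table. Myoglobin (Mb), which stores oxygen, had one of the strongest peaks of the authors' deposited table, at a change of 0.47. Subunits of complex I and of ATP synthase that are not in the list stood on both sides of 0 in the authors' deposited table, with Ndufb7 at 1.92, Atp5g3 at 1.85 and Ndufb10 at 1.47 against Ndufb9 at -0.47, Atp5e at -0.65, Ndufa10 at -0.72 and Atp5d at -1.13. Negative members included Ogdh, a dehydrogenase of the citric acid cycle, at -0.91 and the outer membrane channel Vdac1 at -0.67, in the authors' deposited table. Both listed genes of fatty acid handling, Acadl (-0.91) and Fabp4 (-0.35), were negative, and glycolysis had 3 positive and 5 negative genes, from Pygm at -1.57 to Aldoa at 0.95, by the authors' deposited table.

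Of 9 chaperones 3 were positive, with a median of -0.51 that became 0.27 with the largest change and 0.07 with the median over peaks. Hsp90ab1, a cytosolic chaperone, was at 0.24 at its strongest peak of the authors' deposited table and at 2.26 and -0.78 at its others, and the endoplasmic reticulum chaperones Hspa5, Canx and Hsp90b1 at -0.98, -0.98 and -0.75. Calr, of the same compartment, had peaks at -0.62 and 0.77 in the authors' deposited table. Lysosomal and lipoprotein genes were positive in 2 of 6 cases: the authors' deposited table gave Apoe, a lipid carrier made by macrophages among others, 1.14 with an unadjusted p of 0.024, against the cathepsin Ctsb at -1.92, Lamp1 at -1.77 and Psap at -0.81. Macrophage markers divided evenly, 3 and 3, with the complement genes C1qa at -0.74 and C1qc at -0.91 in the authors' deposited table. All 3 listed endothelial markers were negative, Eng at -0.60, Cdh5 at -0.69 and Fabp4 at -0.35, by the authors' deposited table. Of the translation list 4 of 8 were positive, with the elongation factors Eef1a2 at 0.98 and Eef2 at 0.61 and the ribosome-binding Rrbp1 at -1.41, in the authors' deposited table.

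Of 9 listed genes of the fetal and stress programme 6 were positive, with a median of 0.46, and none was called. All of the positive ones except Nppb (Myh7, Actc1, Acta1, Ankrd1 and Xirp2) are also counted in the sarcomere lists, so this list is not separate from them. In the authors' deposited table Nppa, atrial natriuretic peptide, stood at -0.36, its relative Nppb at 0.42 and the transcription factors Jun and Jund at -1.15 and -0.21. Of 27 genes of the m6A machinery, 2 had a peak: the translation initiation factor and m6A-binding Eif3a at 0.70 and the reader Prrc2a at -0.84, neither past the FDR threshold of the authors' deposited table. Neither the writers nor the erasers had one.

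Noncoding RNA held few peaks, and the called ones among them lay at the ribosomal locus. At Rn18s-rs5 on chromosome 17, a ribosomal RNA locus that RefSeq lists as a pseudogene, 4 peaks without a gene ID lay between 39846483 and 39848199. Their changes in the authors' deposited table were 1.05 (FDR 0.0891), -0.02 (FDR 0.71), 1.44 (FDR 0.043) and 1.33 (FDR 3.02e-05) from 5′ to 3′. Their fold enrichments, 16.1, 9.45, 6.97 and 10.5, were among the 8 lowest of the authors' deposited table. The RNA had been selected for poly(A), per the labels. Copies of the ribosomal repeat cannot be told apart, and how many reads of each library were ribosomal was not analysed here. One microRNA locus, Mir6236 on chromosome 9, had a peak that coincided with the annotated gene from 110281287 to 110281409 and contained its mature sequence, chr9:110281353-110281371, shown to identify the locus, with the seed (bases 2 to 8) in capitals.
mmu-miR-6236: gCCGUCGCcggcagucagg
That peak had an enrichment log10 p of -14.2 at a fold of only 11.3 and a change of 0.04 in the authors' deposited table. MeRIP of fragmented long RNA does not measure a mature microRNA, and the peak is a stretch of whatever transcript covers the locus.

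The nuclear RNA Malat1 had 3 peaks, at -0.61, 0.81 and -0.78 from 5′ to 3′ in the authors' deposited table, and Neat1, the scaffold of paraspeckles, 4 peaks near its 5′ end from -0.87 to 0.00. Of the remaining peaks without an ID, 5 lay on Neat1, 3 on Nppa, and 1 each at Igfbp5, Gja1, Arf6 and the immunoglobulin kappa constant gene Igkc, the last at -0.95 in the authors' deposited table. Many of them duplicated a peak with an ID: 9 pairs of listed peaks overlapped on the same strand and 8 on opposite strands, with the same sign in 8 and 7 of them. Both Nppa peaks without an ID that start at 148000791, on opposite strands, carried the same change of -0.14 in the authors' deposited table, and the same was seen for Srsf4 (-0.62) and Gm12992 (-0.63). The sources used here do not say whether reads were counted by strand, so an antisense peak cannot be told apart from its partner. This touches Mhrt, antisense to Myh7, at 0.03 in the authors' deposited table, and A930016O22Rik, antisense to Ckm.

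Several peaks in 1 gene gave a check from inside the table, although they share the transcript and the libraries. Of 94 genes with 2 or more peaks, all peaks were positive in 13, all negative in 32 and of both signs in 49. The range within a gene had a median of 1.03 on the log2 scale, and it exceeded 1 in 49 genes, so a single peak did not fix the value of its gene. The widest range, 3.55, was that of Atp2a2 in the authors' deposited table. All-positive genes with 3 or more peaks were Myh6, Tpm1, Atp5b and Eef1a2.

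Along Myh6 the 5 peaks declined in order from the 5′ to the 3′ end. In the authors' deposited table they stood at 2.25 (FDR 0.60), 1.90 (FDR 0.24), 1.43 (FDR 0.71), 1.05 (FDR 8.13e-10) and 0.70 (FDR 0.0021), centred at 12.8, 23.3, 36.1, 58.3 and 87.6% of the gene. The called peaks were thus those with the smallest changes and, at 2095 and 1467 bases, the greatest lengths. Myh7 repeated the decline over its 3 strongest peaks, at 1.47, 0.61 and 0.28, but the authors' deposited table gave -0.72 and -0.84 for its 2 weaker peaks at the 5′ end. Atp5b ran the other way, with 1.02, 1.15, 1.66 and 2.71 from 5′ to 3′ in the authors' deposited table, the last with an unadjusted p of 0.0355. Over the 42 genes with 3 or more peaks, 4 fell and 5 rose at every step, and the most 5′ peak was higher than the most 3′ one in 13 and lower in 29. The decline along Myh6 was therefore not the general pattern.

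**Figure D4:**
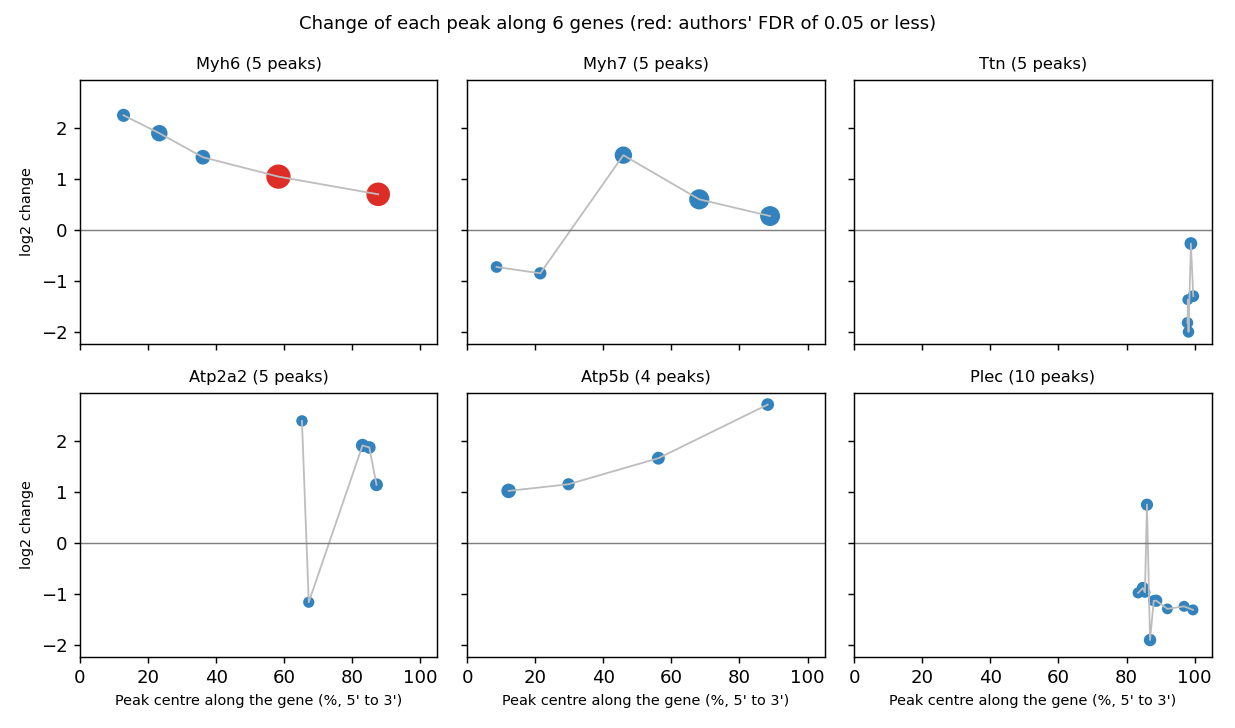
Log2 change of each peak (y axis, aavFto over aavgnp) against its centre along the gene span (x axis, % from 5′ to 3′) for Myh6, Myh7, Ttn, Atp2a2, Atp5b and Plec, with larger points for smaller enrichment p and red for an FDR of 0.05 or less. Myh6 declines from 2.25 to 0.70 and Atp5b climbs from 1.02 to 2.71, while the peaks of Ttn and most of Plec lie below 0 near the 3′ end.

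Outside the lists, 33 of 128 genes were positive, with a median of -0.68. Beside the mitochondrial genes already named, positive values in the authors' deposited table included those of Cyb5r3, a cytochrome b5 reductase, at 2.58, the centromere protein Cenpb at 2.33, the centrosomal scaffold Pde4dip (1.70), App (1.66), Golga4 (1.62) and the protease inhibitor Cst3 (1.48). The other peak of Cenpb stood at -0.89 and that of Pde4dip at -0.93, while both peaks of App and of Golga4 were positive. Negative ones included the caveolar protein Cavin1 at -1.93, the thioesterase Acot13 at -1.84, Ccdc80 at -1.69, the transcription factor Nfe2l1 at -1.63 and the actin-sequestering Tmsb4x at -1.35, whose unadjusted p was 0.049, all in the authors' deposited table.

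The table was last set beside that of MI against sham, with which it shares no library. Of the 465 peaks, 97 (20.9%) overlapped a peak of the other table by at least 1 base on the same strand, while 109 of its 116 peaks (94.0%) were overlapped. The 97 were positive in 55.7% of cases and the other 368 in 26.6%. They were also stronger and longer, with a median enrichment log10 p of -7.33 against -5.01 and a median length of 300 against 179 bases, and the part of this in the shares was not tested. In 122 overlapping pairs, 60 were lower with aavFto and higher after MI, 17 the reverse, 44 higher in both and 1 lower in both. Of these pairs 104 were higher after MI, as were 98 of the 116 peaks of that table, so the pairs mostly divide by the sign of the change with aavFto. Pairs are not independent: the 60 lay in 33 genes, 11 of them in Nppa. That single pair lay in Ogdh, at -0.91 and -1.93 in the authors' deposited tables. Of the 8 called peaks 2 overlapped a peak of the other table. The Mybpc3 peak, at 1.04, contained 2 of its peaks at -2.13 and -1.51 in the authors' deposited table, neither past the FDR there, and a ribosomal peak at 1.33 met one at -1.14 (FDR 0.11). The smallest change listed in the MI table is 1.01 in size, so these counts leave out smaller changes after MI.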

How the data were processed

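Left ventricle RNA, 200 µg per group, had been selected for poly(A) and fragmented ahead of MeRIP, per the labels. The submitters' processing notes name STAR 2.5.3a and the build mm10. Not given in the sources used here were the peak caller and the scaling of libraries. In the values, the deposited score was found to be the enrichment p-value, within 0.02 on the log10 scale, except in 25 rows that list it as 0. The authors gave p and FDR as log10 values, the fold enrichment as a linear ratio, and the change on a log2 scale, per the file headers.

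All rows were kept. P and FDR are printed after raising from log10, and all p-values are the authors' own. All 271 gene IDs matched RefSeq GRCm38.p6. For each gene the peak of smallest enrichment p was used, not that of largest change, which selects on the outcome. Positions are 1-based. Shares have exact (Clopper-Pearson) 95% intervals, computed with scipy 1.17.1. Functions were tested on simulated data. The peaks, lists and comparisons were chosen with earlier results of these data known. Named genes were all called ones, the 10 highest and 10 lowest gene values, the 4 strongest of each list, those with 5 or more peaks and peaks without an ID; not all are printed, and others were added after their values were seen. Alternatives were other FDR and size limits, subsets of peaks, merged loci, other gene values and another overlap rule. Some genes of the lists are counted but not reported here by name.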

Additional observations from a re-analysis of the deposited data

How the results depend on the processing

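The 8 called peaks became 5 at an FDR of 0.01 and 9 at 0.1, stayed 8 as merged loci, and were 6 without peaks that lack a gene ID; under each of these settings none was called lower. With a size limit of 0.5 in place of 1, 91 peaks were higher and 267 lower, and with 1.5, 24 and 26. The positive share of 32.7% was 38.7% without peaks under 100 bases and 67.3% with the sign turned; the other 7 settings gave values inside its exact interval of 28.4 to 37.2. The median over all genes, -0.56, was -0.69 with the largest change; with it the chaperone median was 0.27, and with the median over peaks that of long noncoding RNA went from 0.03 to -0.49. Of 20 list medians, 2 had another sign with the largest change, 2 with the longest peak and 4 with the median over peaks. The overlap with the MI table was 97 peaks, or 93 when at least 50% of the shorter peak had to be shared. No paired analysis was possible because each group has 1 library of each kind and no test was run. With depth unknown, a difference that was not called is not shown to be absent.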
